A study of Homo sapiens with 9 samples.

Results

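The genes described here encode the SLC25 mitochondrial carriers, and the measurement was H3K4me3, the trimethylation of histone H3 lysine 4 that marks active promoters, mapped by CUT&RUN (an antibody-guided nuclease assay) in HEL, a human erythroleukemia cell line. Members were all protein-coding genes of the hg19 annotation whose symbol starts with SLC25A, 46 of 20136 genes, with 2 genes of that symbol series not analysed here. A gene was called marked in a library that listed a peak no more than 1 kb from 1 of its annotated starts, and its signal was that of the largest such peak. The libraries were made from control cells that carried a non-targeting guide (NTC, 3 libraries) and from cells in which CRISPR guides had knocked out METTL3, METTL14 or WTAP (2 libraries each, written METTL3-KO, METTL14-KO and WTAP-KO), all in the same HEL background. Guides and Cas9 were delivered by lentivirus, and whether the cells were clones or a mixed population is not given for these libraries. These 3 genes encode subunits of the nuclear complex that writes N6-methyladenosine (m6A) on mRNA, and the comparison asked how promoter marking differed once that complex was disrupted. Nothing states that libraries of 1 group came from separate cultures, so the spread between them may be technical.

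Mitochondrial carriers are small membrane proteins that move nucleotides, phosphate, organic acids, amino acids, cofactors and iron-linked solutes across the inner mitochondrial membrane, which is otherwise closed to them. Nearly all are made in the cytosol from nuclear genes and are brought to the inner membrane by chaperones and a dedicated translocase. Red cell precursors lean on the family for the metabolites of heme synthesis, and dividing cells lean on it to pass ATP out of the mitochondrion and ADP and phosphate in.

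Promoter sequences are shown because their genes stand for the 4 patterns seen in the family. SLC25A20 had the highest NTC signal, SLC25A23 was the member of the NTC-marked set with a peak in most KO libraries, SLC25A28 had no peak in any KO library, and SLC25A30 had KO peaks and no NTC peak. Each run is the 250 bases before the canonical start, read 5′ to 3′ on the gene's strand from the GRCh37 (hg19) reference at chr3:48936316-48936565, chr19:6459804-6460053, chr10:101380197-101380446 and chr13:45992509-45992758, all on the minus strand. Capitals mark the CCAAT box (CCAAT, the NF-Y site), the GC box (GGGCGG, the SP/KLF site) and, in SLC25A30, the KLF1 CACCC box (CCACACCC), on either strand.
SLC25A20: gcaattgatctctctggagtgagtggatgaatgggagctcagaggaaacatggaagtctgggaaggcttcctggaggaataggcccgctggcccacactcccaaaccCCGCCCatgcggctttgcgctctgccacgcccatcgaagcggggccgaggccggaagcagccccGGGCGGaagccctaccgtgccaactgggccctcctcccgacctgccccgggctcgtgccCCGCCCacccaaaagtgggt
SLC25A23: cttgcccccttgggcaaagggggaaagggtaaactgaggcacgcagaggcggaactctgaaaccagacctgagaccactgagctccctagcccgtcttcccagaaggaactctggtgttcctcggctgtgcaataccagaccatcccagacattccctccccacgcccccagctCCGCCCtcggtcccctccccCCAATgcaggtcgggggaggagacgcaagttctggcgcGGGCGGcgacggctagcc
SLC25A28: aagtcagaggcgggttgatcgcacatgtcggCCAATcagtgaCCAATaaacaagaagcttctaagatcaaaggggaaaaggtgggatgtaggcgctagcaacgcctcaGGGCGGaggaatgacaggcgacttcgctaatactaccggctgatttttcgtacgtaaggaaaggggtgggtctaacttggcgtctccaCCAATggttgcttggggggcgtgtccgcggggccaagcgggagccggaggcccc
SLC25A30: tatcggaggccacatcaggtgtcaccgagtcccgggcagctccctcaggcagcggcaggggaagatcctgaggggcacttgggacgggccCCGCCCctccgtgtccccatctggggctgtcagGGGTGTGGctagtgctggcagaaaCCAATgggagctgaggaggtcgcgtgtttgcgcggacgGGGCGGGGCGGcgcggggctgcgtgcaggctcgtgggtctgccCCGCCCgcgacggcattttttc
The SLC25A28 window held 3 CCAAT boxes and 1 GC box. The SLC25A30 window held 1 CCAAT box at -103 from the start, 4 GC boxes of which a pair overlapped, and 1 KLF1 CACCC box. A GC box was found in 34 of the 46 member windows (73.9%) and in 59.2% of all 19855 promoter windows of this length, and a CCAAT box in 21 (45.7%) and in 34.3%. The E-box CACGTG stood in 8 member windows (17.4%) and in 7.88% of all, the ETS site CCGGAAGT in 4 (8.70%) and in 5.12%, and the NRF1 core GCATGCGC in none of the 46 and in 3.81% of all. The TATA box TATAAA was found in 3 members (6.52%, and in 9.26% of all), SLC25A5, SLC25A18 and SLC25A41, all without an H3K4me3 peak. The erythroid GATA site AGATAA stood in SLC25A4 alone (2.17%, and in 6.56% of all) and the YY1 site ATGGCGGC in SLC25A2 alone (2.17%, and in 1.47%). The KLF1 CACCC box CCACACCC stood in SLC25A30 and SLC25A33 (4.35%, and in 2.89%). Among windows of genes marked in all NTC libraries, a GC box stood in 82.8% of 29 members and in 72.9% of all, and a CCAAT box in 44.8% and in 34.8%. These are letter matches in 1 window and not evidence of binding. The median GC content was 66.0% in the members and 63.2% in all windows.

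Across the 9 libraries 99358 peaks had been called, from 3160 in a WTAP-KO library to 21941 in an NTC library. The lists hold no fragment totals, so depth is unknown. The lowest signal in a list was worth 24 to 28 steps in the NTC libraries and 30 to 94 steps in the KO libraries, the step being the smallest unit of which the list's values are whole multiples, so that a peak was listed from different numbers of steps. Peak widths ended at 2000 bp in all 9 lists, where the NTC lists held 903 to 975 peaks between 1800 and 2000 bp and 0 above. Of 9 erythroid and megakaryocytic genes, 6 were marked in all 3 NTC libraries, GATA1 and KLF1 among them, and of 8 genes of other lineages 6 had no NTC peak, while PAX5, a B cell gene, was marked in all 3.

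In NTC cells the carrier promoters were widely marked. There were 31, 33 and 33 marked members in the 3 NTC libraries (67.4%, 71.7% and 71.7% of the family, against 47.9%, 47.6% and 46.9% of all protein-coding genes), and 29 members were marked in all 3. The METTL3-KO libraries had 15 and 17 marked members, those of METTL14-KO 8 and 4, and those of WTAP-KO 1 and 4. Every KO library had fewer marked members than every NTC library. Set against the NTC mean of 32.3 ± 1.15 (SD, n = 3), the group means were 49.5%, 18.6% and 7.73% of the control number for METTL3-KO, METTL14-KO and WTAP-KO, where all genes together stood at 71.8%, 36.2% and 25.7%. The WTAP-KO value rested on 2 unlike libraries and was 12.4% without WTAP-KO replicate 1 and 3.09% without replicate 2.

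**Figure D1:**
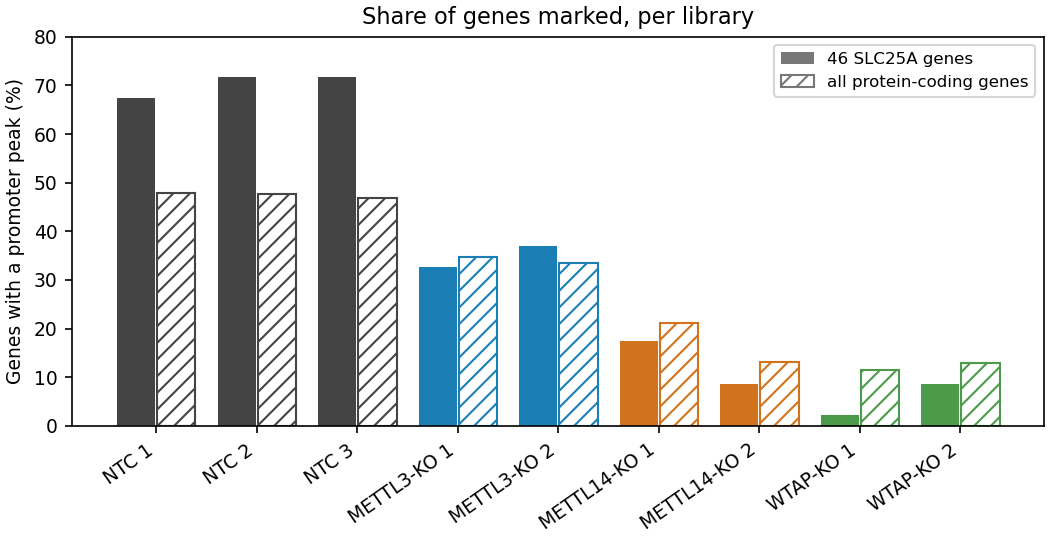
Percent of genes with a promoter peak in each of the 9 libraries, filled bars for the 46 SLC25A genes and hatched bars for all 20136 protein-coding genes. The filled bar is the taller of the pair in the 3 NTC libraries (67.4% to 71.7%) and the shorter in both METTL14-KO and both WTAP-KO libraries.

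Signals were compared with limma on log2(signal + 30.1) over the 12035 genes with a peak in at least 2 libraries, with Benjamini-Hochberg adjustment at 0.05 over all of them. On this scale a library without a peak sits at the pseudocount, so that the size of a change from or to no peak is set by that constant. Where only some libraries of a group lack a peak, the log2 change also depends on it. Such values are not to be read as folds. Of the 46 members, 37 passed the filter, while the other 9 had no promoter peak in any library. For all KO groups against NTC, 29 members fell, where 72.9% of all tested genes fell, 3 rose, where 14.3% of all rose, and 5 did not pass (30 fell and 3 rose at an unadjusted p under 0.05). The 29 that fell were the 29 marked in all 3 NTC libraries. In METTL3-KO alone 28 members fell (60.9% of all genes) and 3 rose (14% of all genes), in METTL14-KO 29 fell (68.8%) and 2 rose (8.38%), and in WTAP-KO 29 fell (69.7%) and 1 rose (6.81%). The median log2 change over the tested members was -6.44 for all KO groups, beside -5.30 over all tested genes, and -4.67, -6.85 and -7.08 for METTL3-KO, METTL14-KO and WTAP-KO, beside -3.48, -5.57 and -5.97. These medians include genes without a KO peak. They therefore depend on the pseudocount and the NTC signal and do not measure the amount lost. The 3 comparisons share the NTC libraries. Where no KO library had a peak, all KO values are the same constant and add no spread. The very small p of such members thus rests on the NTC spread and on limma's shared estimate, and does not measure variation between KO libraries. Of the 29 members that fell, 17 lacked any KO peak and met the filter through NTC peaks alone. The 3 that rose lacked any NTC peak and met it through KO peaks alone. For these members the side that met the filter also set the direction, so their p adds no separate evidence of it. The same limit applies to every tested gene with peaks on 1 side only.

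**Figure D2:**
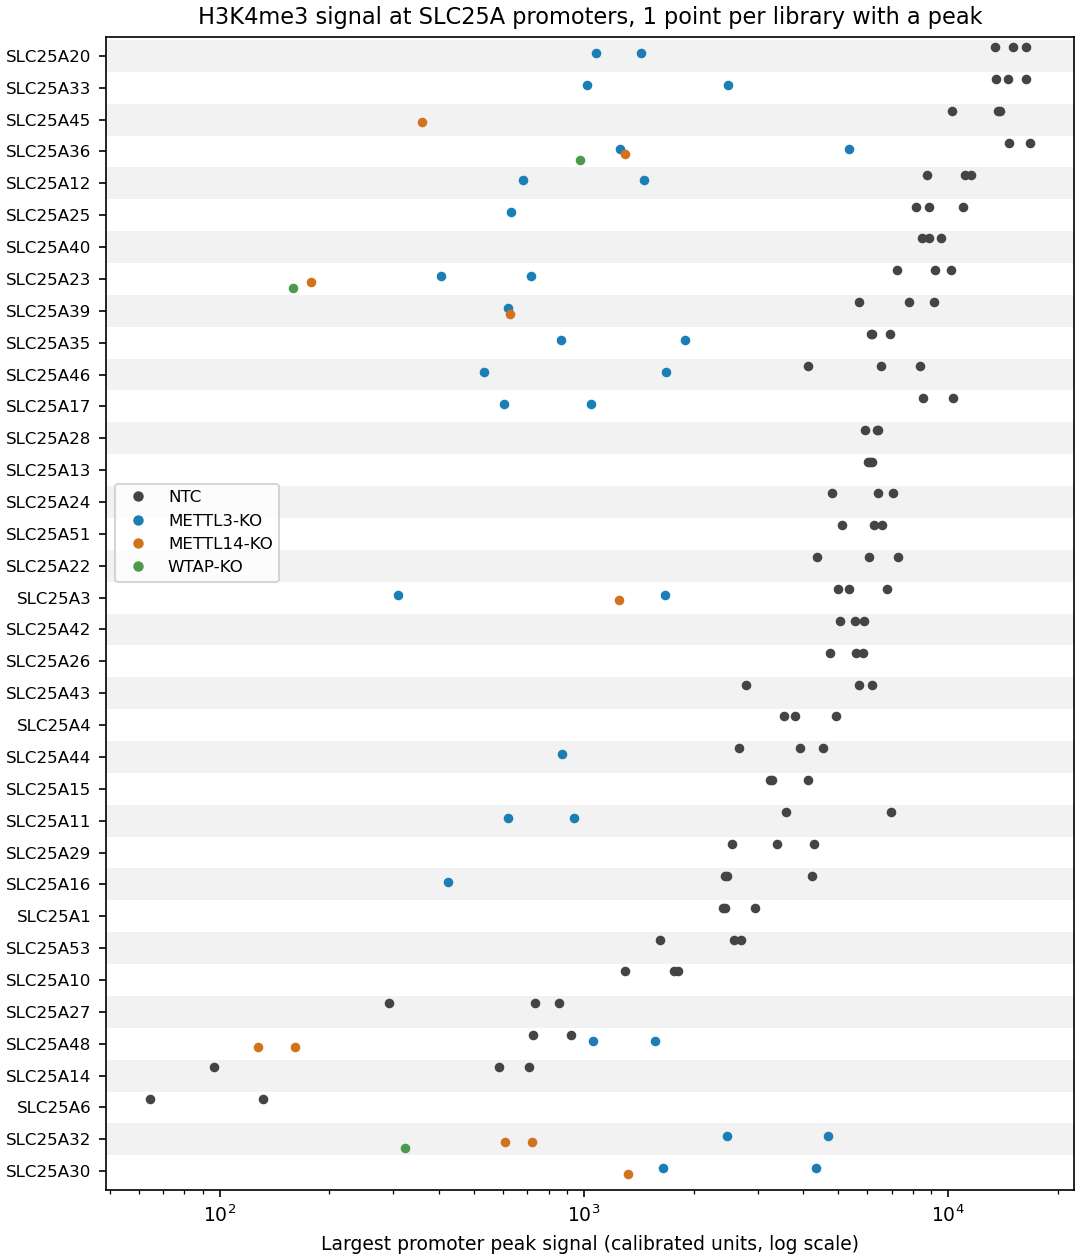
Largest promoter peak signal (calibrated units, log axis) of 36 SLC25A genes with a peak, 1 point per library with a peak, ordered by mean NTC signal; a library without a peak has no point. NTC points lie to the right of all KO points in every row but those of SLC25A48, SLC25A32 and SLC25A30; SLC25A6 and 17 other members have no KO point.

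Of the 29 members marked in all NTC libraries, 17 had no peak in any KO library and 12 (41.4%) had one. Of all 8492 genes marked in all NTC libraries, 54.2% had a peak in at least 1 KO library. Over all tested genes, marked in all NTC libraries or not, 32.3% had a peak in all of these and in no KO library. Of the remaining 12, 11 kept a peak in at least 1 METTL3-KO library, 4 in METTL14-KO and 1 in WTAP-KO. Since strongly marked genes keep a peak more often, the number was set against all 8492 genes marked in all NTC libraries, taken by decile of mean NTC signal. Genes of the same NTC deciles would give 16.7, 7.83 and 3.6 kept members. The observed number was below this in each KO group, and no test was made of the difference. The NTC signal of the family did not stand low: its median was 5909 over the 29 members and 5149 over the 8492 genes. Counting a library without a peak as 0, the 29 members kept on average 4.12%, 0.604% and 0.0308% of their NTC signal in the METTL3-KO, METTL14-KO and WTAP-KO groups, and genes of the same deciles 11.9%, 3.45% and 1.56%. The libraries of a group differed here, with 1.14% and 0.0692% in METTL14-KO and 0% and 0.0616% in WTAP-KO, so that each of these group values rests mainly on 1 library. The METTL14-KO number of kept members was 1 without METTL14-KO replicate 1, and the WTAP-KO number was 0 without WTAP-KO replicate 2 and 2 without NTC replicate 1.

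**Figure D3:**
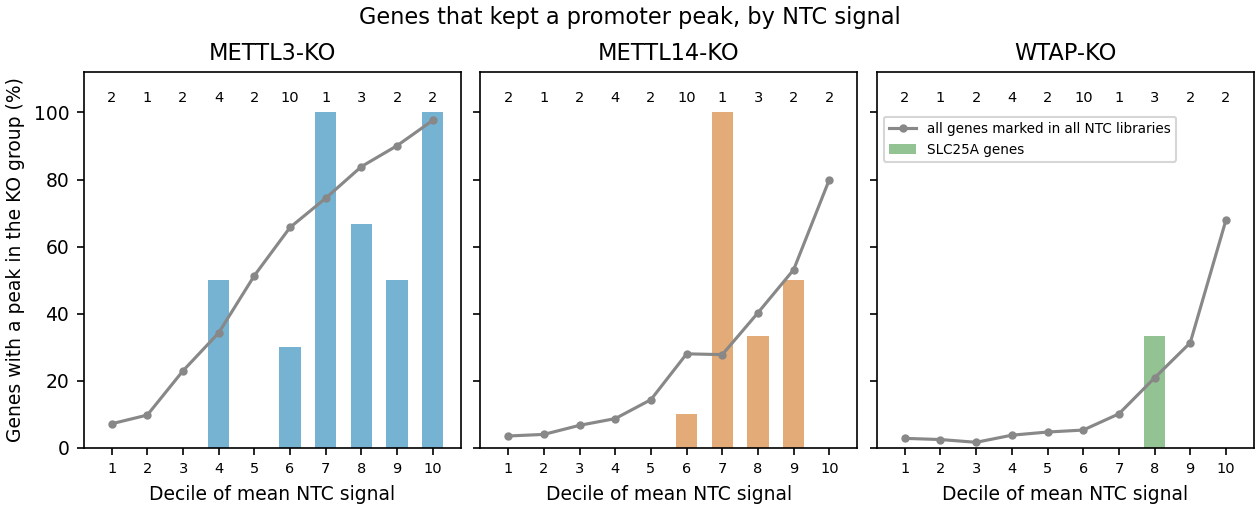
Percent of genes marked in all 3 NTC libraries that kept a peak in at least 1 library of each KO group, by decile of mean NTC signal (10 is the highest); the line is all 8492 genes, bars are SLC25A genes, and the number of SLC25A genes in each decile stands at the top. In the sixth decile, with 10 members, 3 kept a peak in METTL3-KO where 65.7% of all genes did, and in the tenth decile neither of 2 members kept one in METTL14-KO or WTAP-KO.

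The carriers of adenine nucleotides link ATP made in the matrix with its use in the cytosol. Of the 9 genes in this group, 6 were tested, 4 fell for all KO groups and none rose. Of all tested genes, 72.9% fell and 14.3% rose. In this and every later group of carriers, the members that fell were those marked in all 3 NTC libraries, so these counts do not set the substrate groups apart. SLC25A4, the ADP/ATP carrier of heart and muscle, had NTC signals of 3797, 3543 and 4920 and no peak in any KO library (limma adjusted p = 2.1e-08). SLC25A5, the ADP/ATP carrier of dividing cells, had no promoter peak in any library, with the nearest NTC peak 68.1 to 68.4 kb away. SLC25A6, the third widely known form, is annotated on both X and Y in a region they share, where reads cannot be placed on 1 copy. It had weak NTC peaks of 64.5 and 131 in 2 libraries and did not pass the test (adjusted p = 0.0543). It passed without NTC replicate 2 (adjusted p = 0.00032), with 0.1 times the pseudocount (adjusted p = 0.042) and without limma's trend option (adjusted p = 0.044). SLC25A31, the germ cell form, and SLC25A41, a carrier of ATP-Mg and phosphate, had no peak.

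The remaining ATP-Mg/phosphate carriers, which adjust the adenine nucleotide pool of the matrix, were strongly marked in NTC cells. SLC25A23 had signals of 9214, 7260 and 10193 in NTC, 715 and 405 in METTL3-KO, no peak and 178 in METTL14-KO, and no peak and 159 in WTAP-KO. Its 4 KO values were 1.79% to 8.05% of the NTC mean, and it fell for all KO groups (log2 change -5.88, SE 0.82, adjusted p = 0.00053). It was the 1 member of the 29 with a peak in all 3 KO groups. SLC25A24 had NTC signals of 4797, 6403 and 7059 and no KO peak (adjusted p = 2.4e-08). SLC25A25 had NTC signals of 8839, 8152 and 11018 and 1 KO peak, of 630 in METTL3-KO replicate 2, which lay before the canonical start. The largest peak of NTC replicate 2 spanned that start, and those of NTC replicates 1 and 3 lay beyond it. NAIF1 starts 26 bp away on the opposite strand, so the mark there cannot be assigned to 1 gene. SLC25A17, a peroxisomal carrier of cofactors and adenine nucleotides, had no peak in NTC replicate 1 and signals of 8527 and 10308 in the other NTC libraries. It had 1045 and 602 in METTL3-KO and no other KO peak, and it did not pass the test (adjusted p = 0.0968). Its call passed without NTC replicate 1 (adjusted p = 7.3e-06) and with only the peaks that reached the median signal of NTC peaks (adjusted p = 0.04).

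Phosphate and carboxylate carriers feed oxidative phosphorylation and move acyl groups, citrate and dicarboxylates. In this group of 6 genes, 5 were tested, 4 fell (72.9% of all tested genes) and none rose (14.3% of all). SLC25A20, the carnitine/acylcarnitine carrier of fatty acid oxidation, had the highest mean NTC signal of the family, with 13419, 15090 and 16334. METTL3-KO gave 1434 and 1083, which is 9.59% and 7.24% of the NTC mean, and METTL14-KO and WTAP-KO gave no peak. By limma the log2 change in METTL3-KO was -3.55 (SE 0.29, adjusted p = 3.8e-05). SLC25A3, the phosphate carrier that supplies ATP synthase, had 5332, 4975 and 6807 in NTC, 1673 and 310 in METTL3-KO, and 1248 and no peak in METTL14-KO. It fell for all KO groups (log2 change -5.11, SE 1.20, adjusted p = 0.00666), while its METTL3-KO value did not pass (-2.90, SE 1.56, adjusted p = 0.132). With signals centred on genes marked in all 9 libraries, the value for all KO groups no longer passed (-2.27, adjusted p = 0.068). SLC25A1, the citrate carrier, and SLC25A10, the dicarboxylate carrier, had NTC means of 2599 and 1627 and no KO peak. SLC25A11, the oxoglutarate/malate carrier, had NTC signals of 3590, 6979 and no peak, and METTL3-KO signals of 942 and 619, and did not pass (adjusted p = 0.111). It shares its start region with RNF167 on the opposite strand. Its NTC region was 2 peaks in replicate 1, 1 peak of 1984 bp in replicate 2 and not listed in replicate 3, and its call passed without NTC replicate 3 (adjusted p = 2.9e-05), with only the peaks that reached the median signal of NTC peaks (adjusted p = 0.04) and in the fit blocked on replicate number (adjusted p = 0.00019).

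Of the 8 amino acid carriers, 6 were tested, 6 fell (72.9% of all tested genes) and none rose (14.3% of all). SLC25A12 and SLC25A13 both encode aspartate/glutamate carriers of the malate-aspartate shuttle. SLC25A12 had 8755, 11129 and 11527 in NTC and 1459 and 682 in METTL3-KO, with no peak in METTL14-KO or WTAP-KO. SLC25A13 had 6017, 6109 and 6163 in NTC, a narrow spread (SD 73.9), and no peak in any KO library (adjusted p = 1.3e-08). The pair thus differed in METTL3-KO, where SLC25A12 fell by 3.34 on the log2 scale (SE 0.38, adjusted p = 0.00024) and kept a peak in both libraries. SLC25A15 (ornithine/citrulline exchange, a step of the urea cycle), SLC25A22 (glutamate import) and SLC25A29 (basic amino acids) had NTC means of 3547, 5909 and 3412 and no KO peak. SLC25A44, a carrier of branched-chain amino acids, had 2666, 4539 and 3916 in NTC and 1 KO peak, of 872 in METTL3-KO replicate 2. SLC25A2 and SLC25A18, close relatives of SLC25A15 and SLC25A22, had no peak in any library.

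The cofactor and pyrimidine nucleotide carriers held both directions. Of 9 genes, 8 were tested, 5 fell (72.9% of all tested genes) and 2 rose (14.3% of all). SLC25A33, a pyrimidine nucleotide carrier, had 14570, 13533 and 16328 in NTC, 2490 and 1022 in METTL3-KO, and no peak in METTL14-KO or WTAP-KO. Its largest peak lay beyond the start in each library with one, from 477 bp on in NTC replicate 1, and its call was lost when the peak centre had to lie within 1 kb (adjusted p = 0.33). SLC25A36, its close relative, had no peak in NTC replicate 1 and 14731 and 16755 in the other NTC libraries. In the KO libraries it had 5345 and 1259 in METTL3-KO, 1295 and no peak in METTL14-KO, and no peak and 976 in WTAP-KO, and it did not pass the test (adjusted p = 0.471). SLC25A51, the NAD importer, had 5122, 6258 and 6599 in NTC and no KO peak (adjusted p = 1.4e-08). SLC25A26, which imports the methyl donor S-adenosylmethionine, and SLC25A42, a coenzyme A carrier, had NTC means of 5392 and 5479 and no KO peak. SLC25A16, linked to coenzyme A transport, had 2474, 2445 and 4222 in NTC and 425 in METTL3-KO replicate 2 alone among the KO libraries.

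SLC25A32, the folate carrier, was a cofactor carrier that rose. It had no NTC peak and 4682 and 2473 in METTL3-KO, 718 and 608 in METTL14-KO, and no peak and 322 in WTAP-KO (adjusted p = 0.00142). DCAF13 starts 258 bp away on the opposite strand, and in METTL3-KO the largest peak lay on that side, 300 bp or more before the SLC25A32 start. Both METTL3-KO libraries also had a peak that spanned the SLC25A32 start, of 3398 and 2472. The largest METTL14-KO peak spanned that start in replicate 1 and lay from 41 bp beyond it in replicate 2. The mark there cannot be assigned to 1 gene.

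SLC25A30, a relative of the uncoupling proteins, also rose, with no NTC peak, 4326 and 1648 in METTL3-KO, and 1318 and no peak in METTL14-KO (adjusted p = 0.0404). Its call was lost when any 1 NTC, METTL3-KO or WTAP-KO library was left out (adjusted p from 0.06 to 0.1), with the replicate number as a block (adjusted p = 0.093) and when signals were divided by the step (adjusted p = 0.058). Of the 37 members tested, 3 had no NTC peak at any of their starts, SLC25A30 and SLC25A32 among them, as did 15.1% of all genes tested. Absence of an NTC peak moved with peak width in the knockouts: among all genes with a METTL3-KO peak of at most 400 bp, 11.2% (replicate 1) and 13.6% (replicate 2) had no NTC peak, and among those with a peak over 1200 bp, 59.2% and 62.4%. NTC peaks were the wider ones, and the lists stop at 2000 bp. At SLC25A28 the upstream NTC peaks, separate in replicates 1 and 2, were 1 peak in replicate 3. Whether an NTC region wider than the limit went unlisted at SLC25A30, SLC25A32 or SLC25A5, or in 1 NTC library at SLC25A11, SLC25A17 and SLC25A36, was not tested, so no NTC peak here means none listed. The other uncoupling protein relatives, SLC25A14 and SLC25A27, had low NTC means of 463 and 628 and no KO peak, and both fell. CYP39A1 starts 145 bp from SLC25A27 on the opposite strand, so the mark there is not assigned to 1 gene. The call of SLC25A14 was lost when centred on genes marked in all 9 libraries (-0.84, adjusted p = 0.24).

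**Figure D4:**
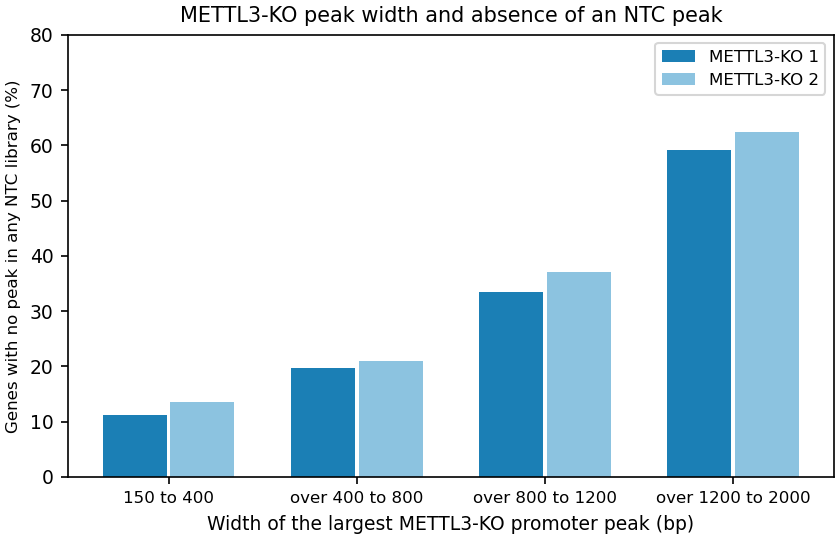
Percent of genes with no promoter peak in any NTC library (vertical axis) by width of their largest METTL3-KO promoter peak in bp (horizontal axis), 1 bar for each METTL3-KO library, over all genes marked in that library. The percent rises from 11.2% and 13.6% in the narrowest class to 59.2% and 62.4% in the widest.

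Iron and glutathione carriers serve the heme and iron-sulfur cluster pathways of the matrix. All 3 genes of this group were tested and fell, where 72.9% of all tested genes fell. SLC25A28, mitoferrin-2, an iron importer, had 6411, 5913 and 6366 in NTC and no KO peak (adjusted p = 1.3e-08). SLC25A40 had 9589, 8849 and 8502 in NTC and no KO peak (adjusted p = 1.3e-08), with peaks 1853, 1914 and 1987 bp wide on the side of DBF4, which starts 127 bp away on the opposite strand. SLC25A39, the glutathione importer and paralog of SLC25A40, had 7803, 5676 and 9122 in NTC, 619 in METTL3-KO replicate 1 and 626 in METTL14-KO replicate 1, and no other KO peak (log2 change for all KO groups -6.47, SE 1.28, adjusted p = 0.00295). Both KO peaks of SLC25A39 were near 8% of the NTC mean (8.22% and 8.31%).

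The last group of 8 genes holds carriers of other or unassigned substrate. Of these, 6 were tested, 5 fell (72.9% of all tested genes) and none rose (14.3% of all). SLC25A45 had 13846, 10256 and 13703 in NTC and 1 KO peak, of 359 in METTL14-KO replicate 1, or 2.85% of the NTC mean. SLC25A46, an outer membrane protein of mitochondrial dynamics, had 6525, 4131 and 8395 in NTC and 1683 and 531 in METTL3-KO. TMEM232 starts 51 bp from it on the opposite strand, so the mark there cannot be assigned to 1 gene. SLC25A35 had 6156, 6163 and 6924 in NTC and 1895 and 866 in METTL3-KO, all at a start far inside the canonical transcript. Around its canonical start the peaks were 3444, 2440 and 3550 in NTC, and the only KO peak was 48.1 in METTL3-KO replicate 2. Starts of other genes were looked up around canonical starts alone, so the mark at the inner start is not assigned to 1 gene. SLC25A43 and SLC25A53 had NTC means of 4880 and 2300 and no KO peak. SLC25A48 was marked at different starts in the groups, its METTL3-KO and METTL14-KO peaks lying over 357 kb before the canonical start, and did not pass (adjusted p = 0.664). It was lower without NTC replicate 1 (adjusted p = 0.00062) and at starts of coding transcripts alone (adjusted p = 0.034). SLC25A34 and SLC25A47 were unmarked, as were SLC25A21 and SLC25A52 of the groups above.

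METTL3-KO was then set against the other KO groups together. By limma no member was lower (0 also at an unadjusted p under 0.05) and 8 were higher, where 29.5% of all tested genes were higher, among them SLC25A12, SLC25A20, SLC25A30, SLC25A32, SLC25A33, SLC25A35 and SLC25A46. Of these, SLC25A12, SLC25A20, SLC25A33, SLC25A35 and SLC25A46 had a peak in both METTL3-KO libraries and in no METTL14-KO or WTAP-KO library, while SLC25A30 and SLC25A32 had no NTC peak. The median difference over the 37 members was 0 on the log2 scale, where it was 1.71 over all tested genes, since 18 of the 37 had no KO peak. Those 18 sat at the pseudocount in all KO libraries and could be called neither lower nor higher. The share of all tested genes that were lower is not given, so the 0 lower is not read as a trait of the carriers. With signals centred on the 665 genes marked in all 9 libraries, 17 members were lower and 6 higher in METTL3-KO. Centring also shifts the value given to a library without a peak, and 16 of those 17 had no peak in any KO library, so that this count is no measure of their signal, while all 6 had one. The 8 became 5 when signals were divided by each library's step and 2 when only peaks that reached the median signal of NTC peaks were kept. That centring took the median log2 change of all genes for all KO groups from -5.30 to -2.46, a shift that libraries without a peak share, and no member is among the 665.

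Where a carrier promoter kept a peak, the peak was weaker and narrower. Over the 23 pairs of a member marked in all NTC libraries and a KO library with a peak, the KO signal was 1.79% to 29.6% of the NTC mean, with a median of 8.31%, where the median over all genes was 11.1%. In METTL3-KO replicate 1 the median was 15.4% (17.9% over all genes) and in replicate 2 it was 7.07% (10.7%). The KO peak was narrower than the mean NTC peak in 23 of 23 pairs, at 14.1% to 52.8% of its width. These pairs came from 12 members, some of them counted in several libraries. The same count was not made over all genes, whose median widths were also smaller in the KO groups, so it is not read as a trait of the carriers. The median width of the largest promoter peak of the members was 1124 bp ± 35.2 (SD, n = 3) in NTC, 537 bp ± 67.2 (SD, n = 2) in METTL3-KO, 325 bp ± 92.3 (SD, n = 2) in METTL14-KO and 332 bp ± 20.5 (SD, n = 2) in WTAP-KO, and over all marked genes it was 1101, 532, 372 and 354 bp. The widths of the carriers thus lay close to those of all genes in NTC and METTL3-KO. More than 1 promoter peak was listed for 51.7% of the 87 NTC values of the members marked in all NTC libraries. For the 23 KO values, which come only from those that kept a peak, the share was 4.35%. These shares were not counted over all genes, so they are not read as a trait of the carriers.

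**Figure D5:**
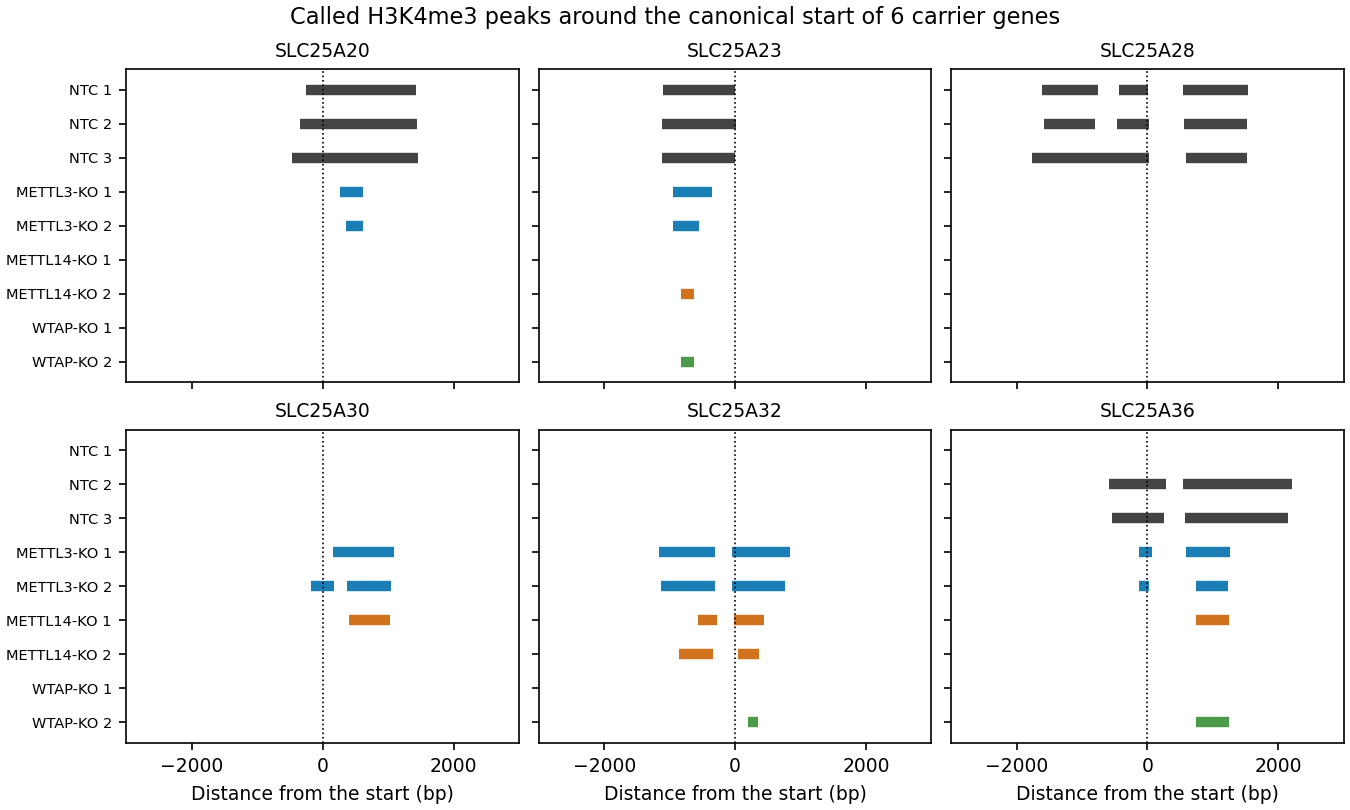
Called peaks in the 9 libraries around the canonical start of 6 carrier genes, as distance from the start in bp in the direction of transcription, 1 row per library; bars are peaks and the dotted line is the start. SLC25A20 and SLC25A23 show narrow KO peaks inside the span of the NTC peaks, SLC25A28 shows NTC peaks alone, SLC25A30 and SLC25A32 show KO peaks alone, and SLC25A36 shows peaks in 2 of 3 NTC libraries.

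Base composition was set beside the calls. In the 250-base windows the median GC content was 72.8% for the 17 without a KO peak and 66.0% for the 12 with one, and 66.4% for all promoters marked in all NTC libraries. The median ratio of observed to expected CpG was 0.853 and 0.821, and 0.586 in the 9 members without a peak in any library. These are descriptions of groups formed from the peak calls.

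Genes that act beside the carriers were counted from a written list. Of 16 genes for the import of carriers (translocase and receptor subunits of the TIM and TOM complexes and AGK), 12 fell for all KO groups, 2 rose and 2 did not pass, where 72.9% of all tested genes fell and 14.3% rose. TIMM22, the channel subunit of the carrier translocase, had 932, 943 and 1227 in NTC and no KO peak (adjusted p = 7e-08). TOMM70, the receptor that takes carrier precursors, had no NTC peak and 1352 and 222 in METTL3-KO, 7508 and 4008 in METTL14-KO, and 3859 and 4807 in WTAP-KO (adjusted p = 5.1e-05), so that METTL3-KO was the lowest KO group there. Of the outer membrane channels, VDAC1 fell and VDAC2 and VDAC3 did not pass. Of the pyruvate carrier subunits, MPC2 rose and MPC1 did not pass. Of 5 family members under other symbols, MTCH2 fell, UCP2 rose (adjusted p = 0.044), MTCH1 did not pass, and UCP1 and UCP3 had no peak.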

How the data were processed

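H3K4me3 CUT&RUN libraries of HEL cells were analysed. The authors aligned 50 bp paired-end reads to hg19 with Bowtie and to the sacCer3 yeast spike-in, used the spike-in for calibration, took out duplicates with Picard and called peaks per library; versions are not given in the sources used here. The deposited lists give position and a signal in calibrated coverage units, with no counts, so depth is not known, and precision is limited by how few libraries there are. Starts were read as counted from 0. Peaks were assigned to starts of GENCODE 44 lifted to GRCh37. log2(signal + 30.1), the lowest signal listed, was fitted with limma 3.58.1 (R 4.3.3; trend option; all 9 libraries, 4 groups, no block), tested on simulated data beforehand. Named were 7 listed genes (SLC25A3, SLC25A4, SLC25A5, SLC25A6, SLC25A28, SLC25A39 and SLC25A51), the 8 highest in NTC, the 5 highest without a KO peak, members higher in every KO library (not reported here), and up to 6 called between KO groups; other members were named after their values were seen. Members and lists were chosen with earlier results of these data known. Same-numbered libraries did not deviate together (r from -0.0578 to 0.0950). Alternatives were the pseudocount, filter, promoter window and starts, peak choice, scaling, groups fitted, replicate block, trend and leaving out each library. Python 3.11.15, pandas 2.3.3, numpy 2.4.6 and matplotlib 3.10.9 were used.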

Additional observations from a re-analysis of the deposited data

Results flagged for a closer look

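METTL3-KO differed from the other KO groups, by the limma test of the difference itself, at 8 members, of which 7 are given here. The difference on the log2(signal + 30.1) scale was 5.10 for SLC25A12, 5.41 for SLC25A20, 5.76 for SLC25A33, 5.45 for SLC25A35 and 5.02 for SLC25A46, which had a peak in both METTL3-KO libraries and none in METTL14-KO or WTAP-KO, so that its size depends on the pseudocount. It was 5.12 for SLC25A30 and 3.69 for SLC25A32, members with no NTC peak. The calls of SLC25A30 and SLC25A32 were lost under 11 of 21 and 10 of 23 alternatives (adjusted p from 0.053 to 0.22 and from 0.056 to 0.21). Both were lost with the replicate number as a block (adjusted p = 0.078 and 0.091), when signals were divided by the step (0.095 and 0.21), with 0.1 times the pseudocount (0.054 and 0.11), without either METTL3-KO library and without any 1 NTC library. The other 5 lost the call when only peaks that reached the median signal of NTC peaks were kept, which takes out their METTL3-KO peaks at all but SLC25A33 by construction. Of these, SLC25A33 also lost it when the peak centre had to lie within 1 kb (adjusted p = 0.31), and SLC25A35 when starts of coding transcripts alone were used (0.69, adjusted p = 0.24). The lowest listed signal was 66 and 30 steps in the METTL3-KO libraries and 70 to 94 steps in the METTL14-KO and WTAP-KO libraries; the part of this in the differences was not tested.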

How the results depend on the processing

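Of 347 values of 20 counts and widths under alternatives, 319 kept their direction and size within 1.5 times. The cause of each change was not tested unless it is given. With a peak required in at least 4 libraries, which tests fewer genes, 12, 11, 12 and 12 members fell, for all KO groups together and for METTL3-KO, METTL14-KO and WTAP-KO. With only the peaks that reached the median signal of NTC peaks, which removes weak KO peaks by construction, 1 member rose in METTL14-KO and 0 in WTAP-KO, 2 were higher in METTL3-KO than in the other KO groups, the marked number was 12.7%, 3.61% and 0% of NTC in the 3 KO groups in that order and 5.42% over all KO libraries, and 1, 0 and 0 members kept a peak (1 in any KO group). With a peak in both libraries required, 7, 0 and 0 did. Centring on genes marked in all 9 libraries gave 4 members that rose in WTAP-KO and 17 lower in METTL3-KO than in the other KO groups. It shifts libraries without a peak too, by construction: 2 of the 4 had no WTAP-KO peak and 16 of the 17 no KO peak, so these counts are no measure of signal there. The centring moved the split of all genes for all KO groups from 8779 lower and 1718 higher to 7119 and 2188. Dividing by the step gave 5 members higher in METTL3-KO than in the other KO groups.

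Leaving out each library in turn, 29 to 31 members fell for all KO groups and 2 to 3 rose, 26 to 29 fell and 3 rose in METTL3-KO, 27 to 30 fell and 2 to 3 rose in METTL14-KO, and 29 to 31 fell and 1 to 2 rose in WTAP-KO, with 2 without WTAP-KO replicate 1. Between KO groups 6 to 9 were higher and 0 to 1 lower in METTL3-KO. The marked number was 46.4% to 52.6%, 12.4% to 24.7% and 3.09% to 12.4% of NTC in the 3 KO groups and 19.8% to 29.7% over all, and 8 to 14, 1 to 6 and 0 to 2 members kept a peak, 9 to 15 in any KO group. Replicate numbers are shared between groups, but same-numbered libraries did not deviate together. With the replicate number as a block 30 members fell and 2 rose for all KO groups, 28 and 3 in METTL3-KO, 29 and 2 in METTL14-KO, 30 and 1 in WTAP-KO, and 7 were higher in METTL3-KO than in the other KO groups, and the marked number was 25.5% of NTC and 13 members kept a peak in any KO group.

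Among single members, 913 of 972 values kept direction and call. When centred, values of the other sign were given for SLC25A6 (1.48), SLC25A36 (0.72) and SLC25A48 (2.29), none of which passed; SLC25A6 has no KO peak, so its sign was set by the shift of libraries without a peak. SLC25A48 also fell without NTC replicate 1 (-2.15) and turned when divided by the step (0.16), with the block (0.17) and without NTC replicate 2 (0.34) or 3 (0.17). The lists give no depth, so a missing call does not show a missing mark.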
